A study of Mus musculus with 12 samples.

Results

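The machinery of programmed cell death was measured in the tumor cells of 12 mice as a set of 44 genes: caspases, the BCL2 family, death receptors with their adaptors, inhibitor of apoptosis proteins (IAPs) with an antagonist, apoptosome and mitochondrial factors, and the necroptosis and pyroptosis genes. Members were taken from a fixed list of gene symbols, and each was read from the brightest probe set paired with that symbol alone, so 44 of the 19938 genes on the array were followed and all 44 had a value.

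Both tumor lines began as mouse neural progenitors that lack Ink4a/Arf and were transduced with human EGFRvIII, a truncated epidermal growth factor receptor that signals without ligand, and each was passaged through mouse brain. The pEGFR-Hi line carries more phosphorylated EGFRvIII than the pEGFR-Lo line. Each host was an FVB mouse injected intracranially with 2 µl of tumor progenitors at 200000 cells/µl, and 6 mice carried each line. Brains were collected near the median survival of their group, which came earlier for pEGFR-Hi, and ZsGreen-tagged tumor cells were sorted after papain digestion and a Percoll gradient. The sources used here do not give the age or sex of the mice. Each group is 1 line, so tumor line and time since injection cannot be told apart and the p-values measure the spread among mice. Cells that took up DAPI were discarded in the sort, so transcripts were read from cells with intact membranes.

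Apoptosis runs along an extrinsic route, in which ligand-bound death receptors recruit FADD and activate caspase-8, and an intrinsic route, in which BCL2 family proteins decide whether mitochondria release cytochrome c to the APAF1 apoptosome and caspase-9. Both converge on executioner caspases, which IAPs restrain. Necroptosis and pyroptosis are lytic: RIPK3 phosphorylates MLKL in the first, and inflammatory caspases cleave gasdermin D in the second. Malignant glioma cells are known to carry most of this machinery while resisting its activation, and many death genes are also induced by interferon.

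Values are log2 after RMA, which equalizes the distribution of probe signals across arrays before they are summarized, and a difference is pEGFR-Hi minus pEGFR-Lo on that scale. A gene was called at an adjusted p under 0.01 (limma, Benjamini-Hochberg over all 19938 genes) together with at least 2-fold. A level of 4.10, below which 95% of 1027 olfactory receptor genes lay, served as background, and 42 of the 44 members (95.5%) were above it in at least 1 group, against 69.1% of all genes. The exceptions were Tnfrsf10b, a TRAIL receptor, and Nlrp3, an inflammasome sensor. Array medians lay between 4.81 and 4.88, and arrays correlated at 0.9907 to 0.9936 within pEGFR-Hi and at 0.9847 to 0.9935 within pEGFR-Lo. Progenitor markers were present in both groups, with means of 8.78 and 8.73 for Nes and 9.49 and 8.99 for Sox2. Cdkn2a, the Ink4a/Arf locus, read 5.26 and 5.36, but the sources do not say whether its probes lie inside the deletion, so these values check nothing. In bulk RNA a lower value can mean fewer cells with a transcript or less of it per cell, which cannot be told apart.

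Within pEGFR-Lo, replicates 3 and 6 stood apart. The mean of 37 interferon-stimulated genes, none of them a member, was 5.89 and 5.82 in these 2 mice, 7.16 to 7.57 in the other 4 pEGFR-Lo mice and 8.25 to 9.16 in pEGFR-Hi. Of these 37 genes, 26 were called higher in pEGFR-Hi, where 3.99% of all genes were called. The same 2 mice held the lowest values of all 12 mice for 11 of the 44 members (25%), against 3.45% of all genes and 34 of the 37 interferon-stimulated genes (91.9%). The interferon list was chosen with earlier results of these data known, and these mice were set apart by its mean. Its 26 calls and its 91.9% are therefore descriptions and not separate support. Results that rest on these mice are given below with and without them. The fit without them was chosen after seeing the data. For members lowest in these mice it narrows the pEGFR-Lo spread by construction, so its p-values there are descriptions.

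Of the 44 members, 5 were called higher in pEGFR-Hi, where 3.99% of all genes were called, and 2 were called higher in pEGFR-Lo, where 5.06% of all genes were called. Casp8, Casp4, Bcl2l11, Zbp1 and Pycard made up the first group, and Tnfrsf21 and Tnfrsf19 the second. With no fold limit, 13 members passed as higher in pEGFR-Hi, against 14.7% of all genes, and 4 as higher in pEGFR-Lo, against 12.9%. The remaining 27 members did not pass. All 6 mice of one group lay beyond all 6 of the other for 8 members higher in pEGFR-Hi (12.2% of all genes) and for 5 higher in pEGFR-Lo (11.1%). The median difference of the 44 members was 0.18, against 0.01 over all genes, and the median size of the difference regardless of sign was 0.36, against 0.18 over all genes and 0.28 over genes above background.

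**Figure D1:**
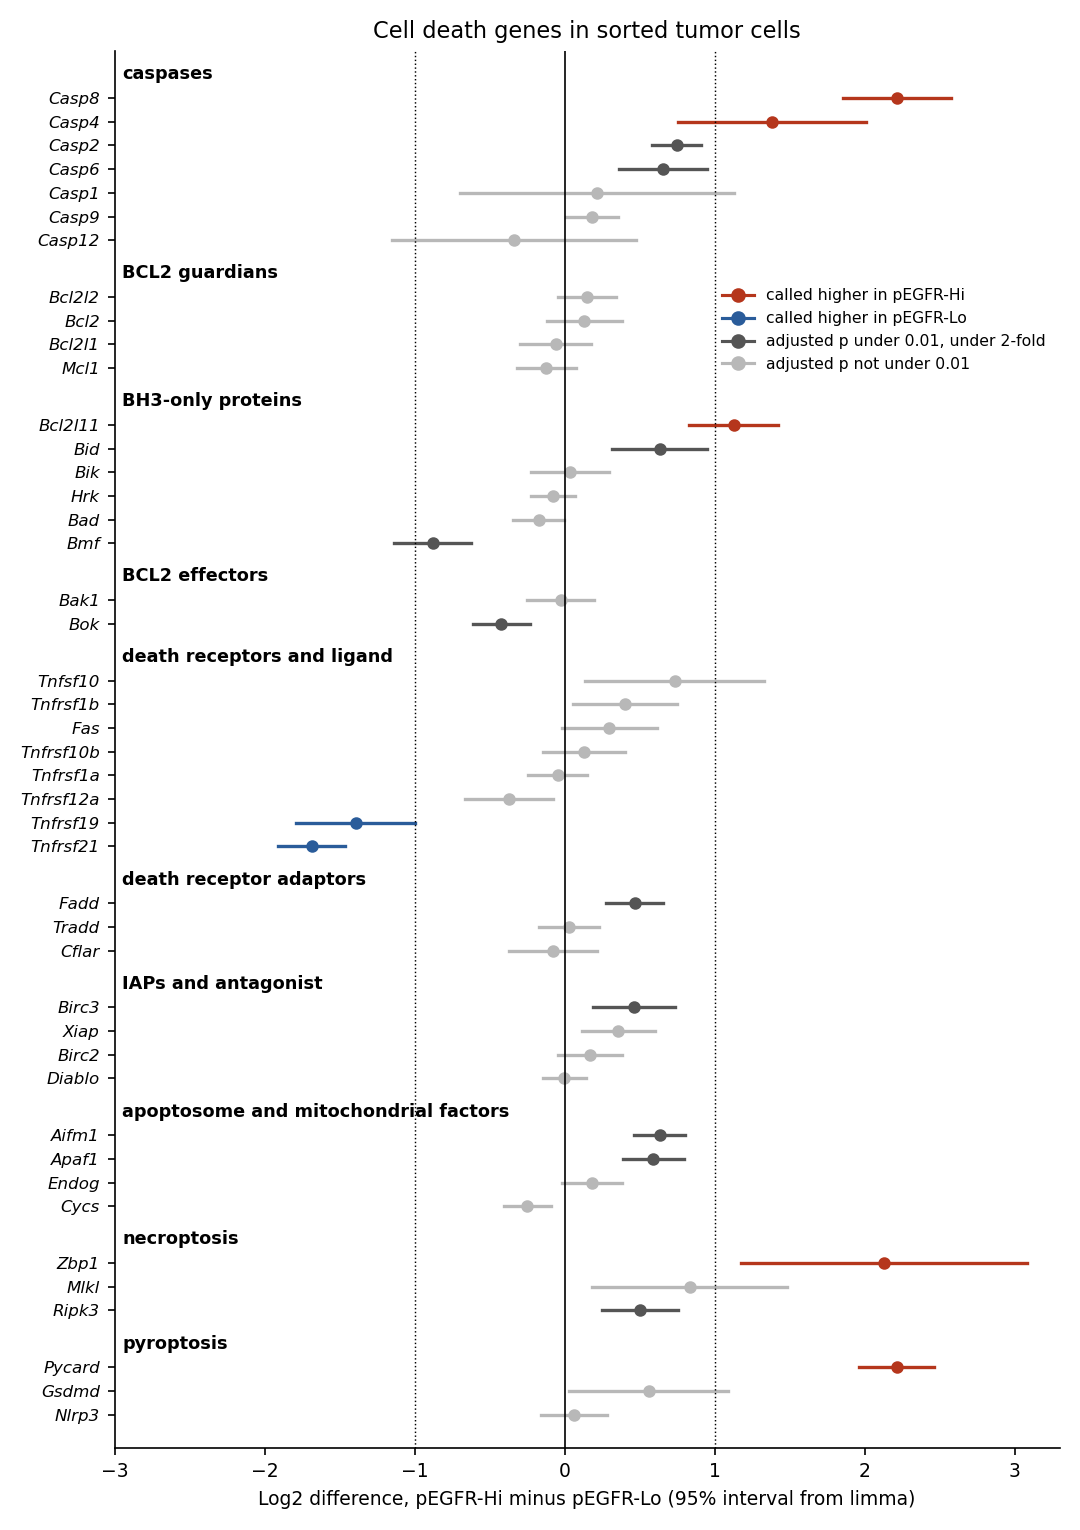
Log2 difference (pEGFR-Hi minus pEGFR-Lo, x axis) of each of the 44 cell death genes, grouped by role, as points with 95% intervals from limma; dotted lines mark 2-fold. Casp8, Pycard, Zbp1, Casp4 and Bcl2l11 lie to the right of the 2-fold line, and Tnfrsf21 and Tnfrsf19 to the left. The wide intervals of Zbp1, Casp1, Casp12, Mlkl, Casp4, Tnfsf10 and Gsdmd belong to genes with low values in pEGFR-Lo replicates 3 and 6.

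Caspases are the proteases that carry out cell death. Of the 7 measured here, 2 were called higher in pEGFR-Hi, where 3.99% of all genes were called. Another 2 passed the p limit below 2-fold, and 14.7% of all genes passed as higher in pEGFR-Hi with no fold limit. With all mice none passed as higher in pEGFR-Lo, against 12.9% of all genes. Casp8, the initiator caspase of death receptors and a brake on necroptosis, ran from 7.31 through a median of 7.42 to 7.54 in pEGFR-Hi and from 4.50 through 5.21 to 5.74 in pEGFR-Lo. The groups did not overlap, and the pEGFR-Hi mice were packed within a far narrower range (SD 0.092 against 0.469, n = 6 each). Casp8 was 4.64-fold higher in pEGFR-Hi (difference 2.21, SE 0.17, adjusted p = 3.24e-08). It was still 4.16-fold higher without pEGFR-Lo replicates 3 and 6.

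Casp4, which encodes mouse caspase-11, the cytosolic sensor of bacterial lipopolysaccharide, ran from 6.39 through 6.73 to 7.57 in pEGFR-Hi and from 4.35 through 5.50 to 6.40 in pEGFR-Lo. The highest pEGFR-Lo mouse, replicate 4, just reached the lowest pEGFR-Hi mouse. The difference was 2.61-fold (1.38, SE 0.29, adjusted p = 0.00133). Without pEGFR-Lo replicates 3 and 6 it was 0.97 (SE 0.24, adjusted p = 0.00537) or 1.96-fold, short of the fold limit.

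Casp2, the initiator caspase activated by the PIDDosome, was 1.68-fold higher in pEGFR-Hi with groups apart (difference 0.75, SE 0.08, adjusted p = 1.09e-06). Casp6, an executioner caspase, differed by 0.66 (SE 0.14, adjusted p = 0.00126) with overlapping groups, and by 0.60 without pEGFR-Lo replicates 3 and 6, where it missed the p limit (adjusted p = 0.0103). Casp9, the initiator caspase of the apoptosome, differed by 0.18 (95% interval 0.0087 to 0.354, adjusted p = 0.0985). 

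Casp1, the inflammasome caspase, and Casp12, an inflammatory-type caspase tied to endoplasmic reticulum stress, did not pass the test in 12 mice. Casp1 lay between 7.46 and 8.21 in pEGFR-Hi and between 6.01 and 9.02 in pEGFR-Lo, which gave a difference of 0.22 (SE 0.43, adjusted p = 0.759). Among pEGFR-Lo mice it was 6.31 in replicate 3, 6.01 in replicate 6 and 7.80 to 9.02 in the others. The pEGFR-Lo group therefore held both the lowest and the highest mice of the series. Casp12 lay between 5.52 and 6.03 in pEGFR-Hi, was 5.12 in pEGFR-Lo replicate 3 and 4.44 in replicate 6, and lay between 6.55 and 7.23 in the remaining pEGFR-Lo mice. With all mice its difference was -0.34 (SE 0.38, adjusted p = 0.561). Without replicates 3 and 6 it was -1.04 (SE 0.14, adjusted p = 3.62e-05), 2.05-fold higher in pEGFR-Lo and past both limits. These mice held the lowest Casp12 values and were left out after seeing the data. Leaving them out raises the pEGFR-Lo mean and narrows its spread by construction, so this p-value is no test of Casp12. In the same fit Casp1 changed sign to -0.53 (SE 0.23, adjusted p = 0.0947). The part of the interferon-stimulated genes, which were low in the same mice and higher in pEGFR-Hi, in the values of the caspases and of the necroptosis and pyroptosis genes was not tested.

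Casp1, Casp4 and Casp12 are direct neighbours on chromosome 9 with 0 protein-coding genes between them in the RefSeq annotation of GRCm38.p6. Their upstream sequences, the 250 bases before 1 annotated start per gene from the RefSeq promoter table (GRCm38.p6, plus strand, 5′ to 3′; the first of 2 nearby starts for Casp4), are shown because the 3 genes were all lowest in the same 2 mice yet differed from each other between groups. Capitals mark matches to a STAT site (TTCNNNGAA, which reads the same on both strands), and no window of the 3 held the interferon regulatory factor core (GAAANNGAA on either strand).
Casp1 at chr9:5298267-5298516: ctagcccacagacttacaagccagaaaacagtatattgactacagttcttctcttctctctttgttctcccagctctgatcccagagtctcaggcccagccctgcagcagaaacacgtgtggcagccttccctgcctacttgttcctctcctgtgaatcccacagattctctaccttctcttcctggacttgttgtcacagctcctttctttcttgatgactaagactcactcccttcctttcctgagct
Casp4 at chr9:5308599-5308848: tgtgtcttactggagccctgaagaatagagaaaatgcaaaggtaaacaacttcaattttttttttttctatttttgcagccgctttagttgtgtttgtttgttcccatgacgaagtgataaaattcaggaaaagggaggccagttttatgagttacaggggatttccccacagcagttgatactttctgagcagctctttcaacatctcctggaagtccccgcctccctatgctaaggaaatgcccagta
Casp12 at chr9:5345226-5345475: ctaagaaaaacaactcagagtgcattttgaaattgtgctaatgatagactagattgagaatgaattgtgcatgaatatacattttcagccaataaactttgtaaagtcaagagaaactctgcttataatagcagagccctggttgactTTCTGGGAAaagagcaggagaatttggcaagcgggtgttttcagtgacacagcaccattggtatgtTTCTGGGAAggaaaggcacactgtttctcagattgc
Casp12 held the same letters, ttctgggaa, at positions -102 and -36 from its start. Over windows of 300 bases (250 before the start and 50 after), 39 of the 44 members had an entry, in 51 windows. The STAT site was found in 5 of these windows (Casp12, Fas, Tnfrsf19, Tnfrsf1a and Tnfrsf1b) and in 8.3% of all 32851 windows. The interferon regulatory factor core was found in 4 (Cflar, Ripk3, Tnfrsf1b and Xiap) and in 8.56% of all windows. These matches are letters in a window and not measured binding.

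**Figure D2:**
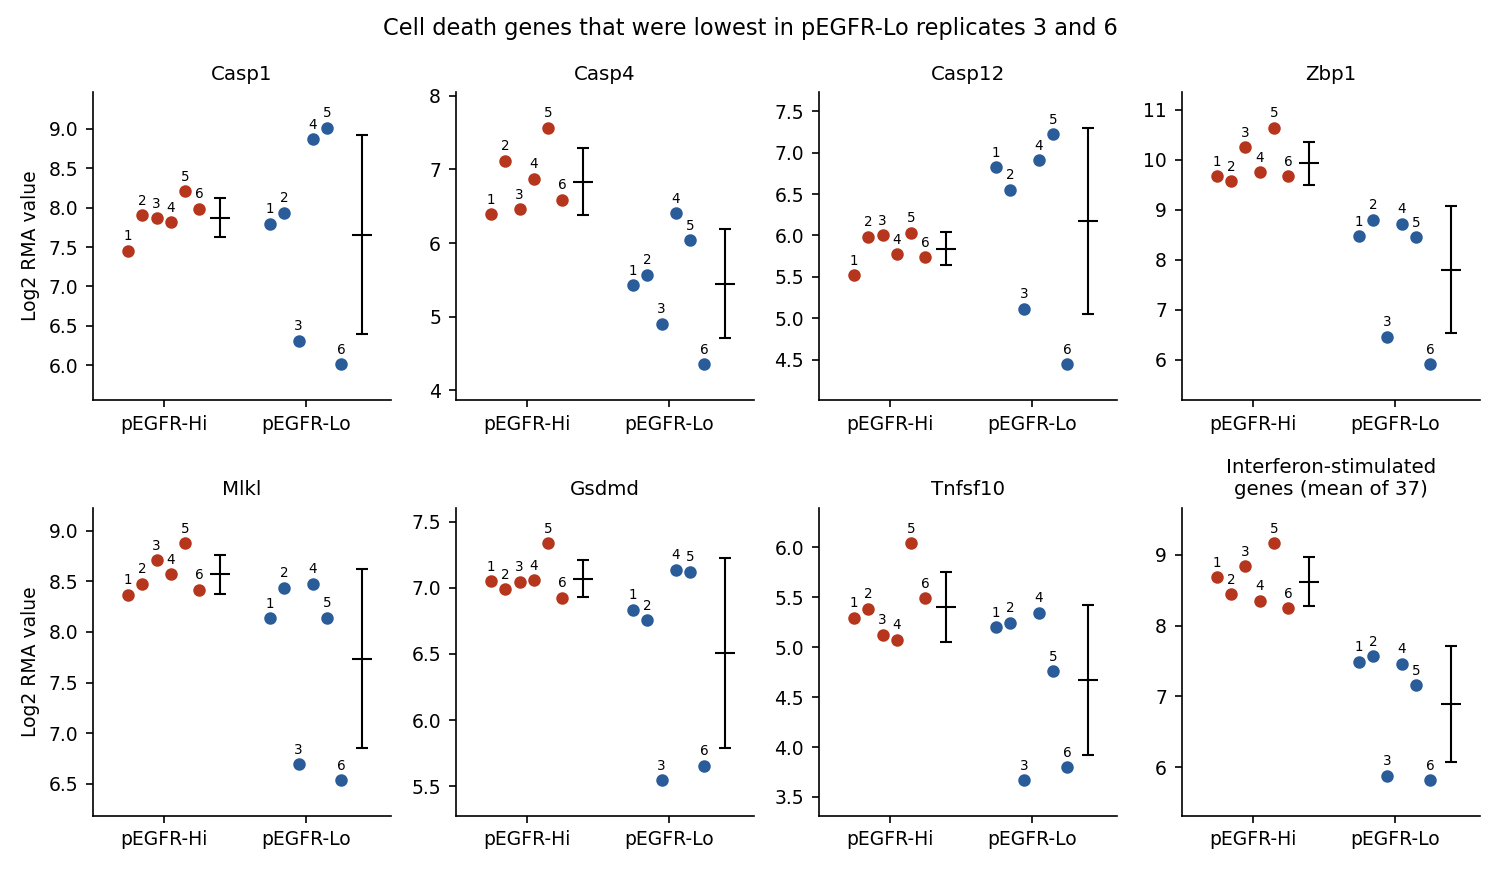
Log2 RMA value (y axis) of 7 cell death genes and the mean of 37 interferon-stimulated genes in each mouse, with the replicate number above each point and the mean ± SD (n = 6) beside each group. The 7 genes were taken from the 11 of 44 members that were lowest in pEGFR-Lo replicates 3 and 6, so these mice are the lowest points in every gene panel by choice. They are also lowest in the panel of interferon-stimulated genes. In Casp12 the other 4 pEGFR-Lo mice lie above all pEGFR-Hi mice, and in Zbp1 they lie below them.

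The BCL2 family governs the mitochondrial route. Its 4 guardians, which hold the effectors in check, did not pass the test, and their intervals were narrow. Bcl2 differed by 0.13 (95% interval -0.116 to 0.379, adjusted p = 0.441), Bcl2l1, which encodes BCL-XL, by -0.06 (-0.300 to 0.178), Bcl2l2, which encodes BCL-W, by 0.15 (-0.0464 to 0.342) and Mcl1 by -0.12 (-0.320 to 0.0780). All 4 intervals lay inside 2-fold in both directions.

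Of the 6 BH3-only genes, whose products trigger the mitochondrial route, 1 was called higher in pEGFR-Hi (3.99% of all genes). Bcl2l11, which encodes BIM, a binder of all guardians, ran from 6.66 through 7.22 to 7.34 in pEGFR-Hi and from 5.73 through 5.93 to 6.44 in pEGFR-Lo. The groups were apart, with pEGFR-Hi replicate 5 the nearest to pEGFR-Lo. The difference was 2.19-fold (1.13, SE 0.14, adjusted p = 7.23e-06), and 1.12 without pEGFR-Lo replicates 3 and 6. Bmf, another BH3-only gene, went the other way: it lay between 4.86 and 5.58 in pEGFR-Hi and between 5.88 and 6.40 in pEGFR-Lo, a difference of -0.88 (SE 0.12, adjusted p = 2.18e-05) or 1.84-fold, with groups apart. Bid, which links caspase-8 to mitochondria, was 1.55-fold higher in pEGFR-Hi (0.63, SE 0.15, adjusted p = 0.00287). It differed by 0.45 (adjusted p = 0.0192) without pEGFR-Lo replicates 3 and 6, which missed the p limit. Bad, Bik and Hrk differed by -0.17, 0.04 and -0.08 and did not pass.

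The effectors form the mitochondrial pore. Bak1 differed by -0.03 (95% interval -0.253 to 0.198). Bok, an effector known to act apart from the guardians, had a median of 7.35 in pEGFR-Hi, where no mouse was above 7.40, and of 7.75 in pEGFR-Lo, where none was below 7.52. It was 1.34-fold higher in pEGFR-Lo with groups apart (difference -0.42, SE 0.09, adjusted p = 0.00121).

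Among 7 members of the TNF receptor family and the ligand TRAIL (Tnfsf10), both calls were higher in pEGFR-Lo (5.06% of all genes). Tnfrsf21, which encodes death receptor 6, a receptor known from neurons and oligodendrocyte progenitors, ran from 7.48 through 7.94 to 8.14 in pEGFR-Hi and from 9.47 through 9.57 to 9.74 in pEGFR-Lo. The gap between the groups exceeded the range within either of them. Tnfrsf21 was 3.22-fold higher in pEGFR-Lo (difference -1.69, SE 0.10, adjusted p = 2.93e-09). Tnfrsf19, which encodes TROY, a receptor of neural progenitors without a death domain, ran from 4.32 through 4.87 to 5.37 in pEGFR-Hi and from 5.70 through 6.22 to 6.66 in pEGFR-Lo. The groups were apart, and Tnfrsf19 was 2.63-fold higher in pEGFR-Lo (difference -1.39, SE 0.19, adjusted p = 1.63e-05). Without replicates 3 and 6 the 2 differences were -1.73 and -1.41.

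The receptors that bind the classical death ligands did not pass. Fas differed by 0.30 (95% interval -0.0149 to 0.613), Tnfrsf1a, the main TNF receptor with a death domain, by -0.05 (-0.244 to 0.150), and Tnfrsf1b, the TNF receptor without one, by 0.40 (0.0585 to 0.751, adjusted p = 0.0656). Fas and Tnfrsf1b were both lowest in pEGFR-Lo replicates 3 and 6, and without these mice they differed by 0.13 and 0.16. Tnfrsf10b was at background in both groups. Tnfrsf12a, the TWEAK receptor, differed by -0.37 (adjusted p = 0.0475). Tnfsf10 differed by 0.73 (SE 0.28, adjusted p = 0.0532): it lay between 5.08 and 6.04 in pEGFR-Hi, was below background in pEGFR-Lo replicates 3 (3.67) and 6 (3.80), and lay between 4.76 and 5.34 in the remaining pEGFR-Lo mice. Without those mice the difference was 0.27 (adjusted p = 0.295).

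Of the adaptors, Fadd, which bridges death receptors to caspase-8, was 1.38-fold higher in pEGFR-Hi with groups apart (difference 0.47, SE 0.09, adjusted p = 4.96e-04). Tradd, the adaptor of the TNF receptor, differed by 0.03 (95% interval -0.171 to 0.228). Cflar, which encodes c-FLIP, the catalytically dead relative of caspase-8 that blocks it, differed by -0.08 (-0.370 to 0.216). Cflar is the direct neighbour of Casp8 on chromosome 1, with 0 protein-coding genes between them. Its other probe sets differed by 0.21 and 0.29, so the sign of the Cflar difference depended on the probe set.

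**Figure D3:**
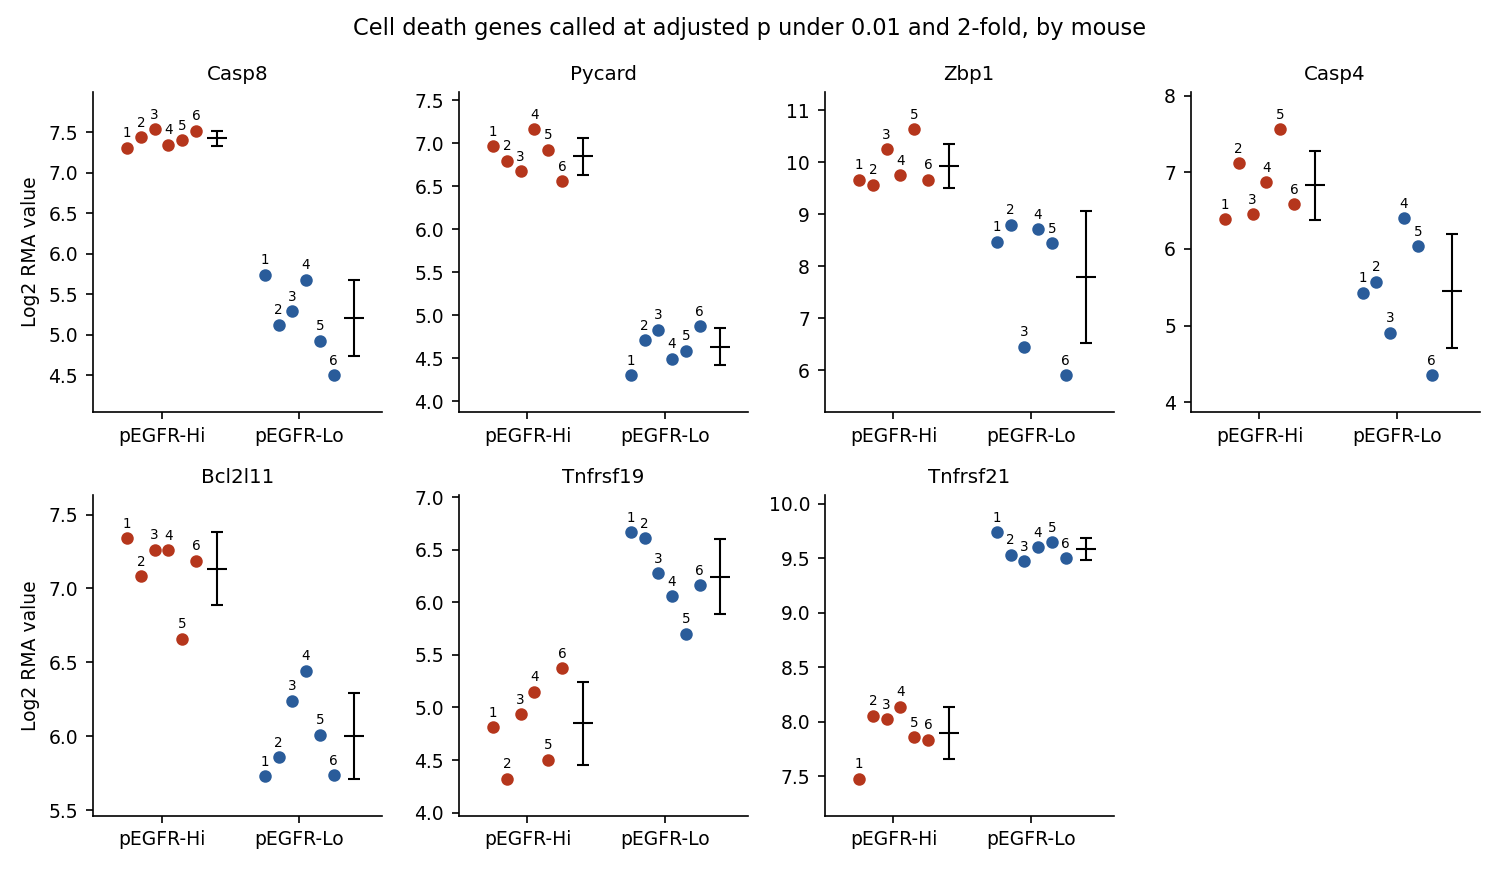
Log2 RMA value (y axis) of the 7 called cell death genes in each mouse, with the replicate number above each point and the mean ± SD (n = 6) beside each group. The groups are apart in all panels except Casp4, where the highest pEGFR-Lo mouse (6.40) reaches the lowest pEGFR-Hi mouse (6.39).

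The 4 genes for IAPs and their antagonist gave no call. Birc3, which encodes the ubiquitin ligase cIAP2, was 1.38-fold higher in pEGFR-Hi (difference 0.46, SE 0.13, adjusted p = 0.0095), and its adjusted p was 0.0413 without pEGFR-Lo replicates 3 and 6. Xiap, which encodes the direct caspase inhibitor, differed by 0.36 (SE 0.12, adjusted p = 0.0225), and by 0.47 (adjusted p = 0.00717) without those mice. Birc2, the neighbour of Birc3 on chromosome 9, differed by 0.17 (95% interval -0.0409 to 0.384). Its other probe set differed by 0.42, and the mean of both by 0.30 (adjusted p = 0.0151). Diablo, which encodes the mitochondrial IAP antagonist SMAC, differed by less than 0.01, with a 95% interval of -0.146 to 0.142.

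Of the apoptosome and mitochondrial factors, Apaf1, the scaffold that activates caspase-9, was 1.51-fold higher in pEGFR-Hi (difference 0.59, SE 0.09, adjusted p = 9.84e-05). Aifm1, a flavoprotein of the inner mitochondrial membrane that can move to the nucleus in cell death, was 1.55-fold higher (0.63, SE 0.08, adjusted p = 1.04e-05). Both had groups apart. Cycs, which encodes cytochrome c, lay between 9.66 and 9.88 in pEGFR-Hi and between 9.92 and 10.13 in pEGFR-Lo. The groups were apart, but the difference of -0.25 (SE 0.07, adjusted p = 0.0130) missed the p limit. All 3 probe sets of Cycs had the same sign, with differences of -0.25, -0.26 and -0.40. Endog, a mitochondrial nuclease, differed by 0.18 (95% interval -0.0202 to 0.381).

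The 3 necroptosis genes all had positive differences. Zbp1, a sensor of left-handed double-stranded nucleic acid that engages RIPK3, ran from 9.57 through 9.71 to 10.64 in pEGFR-Hi and from 5.90 through 8.46 to 8.80 in pEGFR-Lo. The groups were apart, but pEGFR-Lo split into replicates 3 and 6, at 6.46 and 5.90, and the other 4 mice, at 8.45 to 8.80. Zbp1 was 4.36-fold higher in pEGFR-Hi with all mice (difference 2.13, SE 0.45, adjusted p = 0.00122) and 2.49-fold higher without replicates 3 and 6 (1.32, SE 0.19, adjusted p = 9.33e-05). Mlkl, the executioner of necroptosis, differed by 0.83 (SE 0.30, adjusted p = 0.0433): it lay between 8.37 and 8.88 in pEGFR-Hi, was 6.69 in pEGFR-Lo replicate 3 and 6.54 in replicate 6, and lay between 8.14 and 8.48 in the rest of that group. Without those 2 mice the difference was 0.27 (adjusted p = 0.101). Ripk3, the kinase between Zbp1 and Mlkl, was at a mean of 4.49 in pEGFR-Hi and 3.98 in pEGFR-Lo, the latter below background. In pEGFR-Hi it was higher by at least 1.30-fold (adjusted p = 0.00293).

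Of the pyroptosis genes, Pycard, which encodes ASC, the adaptor that joins inflammasome sensors to caspase-1, ran from 6.56 through 6.86 to 7.17 in pEGFR-Hi and from 4.30 through 4.65 to 4.88 in pEGFR-Lo. The groups were far apart, and pEGFR-Lo replicates 3 and 6 were the highest of their group. Pycard was 4.64-fold higher in pEGFR-Hi (difference 2.21, SE 0.12, adjusted p = 5.80e-10) and 5.01-fold higher without those mice. Gsdmd, which encodes the pore of pyroptosis, differed by 0.56 (SE 0.25, adjusted p = 0.0980): it lay between 6.93 and 7.34 in pEGFR-Hi, was 5.55 in pEGFR-Lo replicate 3 and 5.66 in replicate 6, and lay between 6.76 and 7.14 in the rest of that group. Without them the difference was 0.11 (adjusted p = 0.532). Nlrp3 was at background in both groups.

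Pycard, Casp1, Casp4 and Gsdmd are also transcripts of microglia and macrophages, so markers of those cells are given beside them. Of 19 measured markers 12 were above background, with a mean per mouse of 4.08 to 4.30 in pEGFR-Hi and 4.02 to 4.59 in pEGFR-Lo. Aif1, Csf1r, Ptprc, Itgam, Fcer1g and Lyz2 were not above background in either group. Cx3cr1 (means of 5.28 in pEGFR-Hi and 5.13 in pEGFR-Lo), Trem2 (5.02 and 5.05), Tmem119 (4.56 and 4.91) and C1qc (4.36 and 4.63) were above it in both. Cd14 (5.75 and 4.10, the latter at background) and Cd68 (6.48 and 5.24) were called higher in pEGFR-Hi and P2ry12 (4.69 and 6.43) higher in pEGFR-Lo. The part of such cells in the values of these genes was not tested. Neutrophil markers were above background in 0 of 6 cases, and 3 of 9 T and NK cell markers were above it, with 0 called. Astrocyte markers, which tumor progenitors also express, had means of 6.03 to 6.42 in pEGFR-Hi and 6.86 to 7.40 in pEGFR-Lo, and myelinating oligodendrocyte markers, of which 3 of 7 were above background, had means of 3.78 to 3.85 and 4.17 to 4.36. Members of the astrocyte list were split. Of the astrocyte markers, Slc1a3, Slc1a2 and Gja1 were called higher in pEGFR-Lo, while Gfap was called higher in pEGFR-Hi (9.81 and 8.38) and Aldoc differed by 0.46 (adjusted p = 7.73e-04) in the same direction. Of the oligodendrocyte markers above background in a group, Ermn was called higher in pEGFR-Lo, Cldn11 differed by -0.84 (adjusted p = 0.0298) and Mbp by -0.09. Mog and Mobp, which were not above background in either group, differed by 0.01 and 0.08. Mature neuron markers had means of 3.85 to 3.96 in pEGFR-Hi and 3.94 to 4.22 in pEGFR-Lo. Of 10 such markers 6 were above background, with 0 called. Snap25 differed by -0.82 (adjusted p = 1.08e-06), Gad1 by -0.52 (adjusted p = 0.00252) and Syp by -0.36. Camk2a and Rbfox3 differed by -0.05 each and Syt1 by 0.18. The part of these cell types in the Tnfrsf21 and Tnfrsf19 values was not tested.

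**Figure D4:**
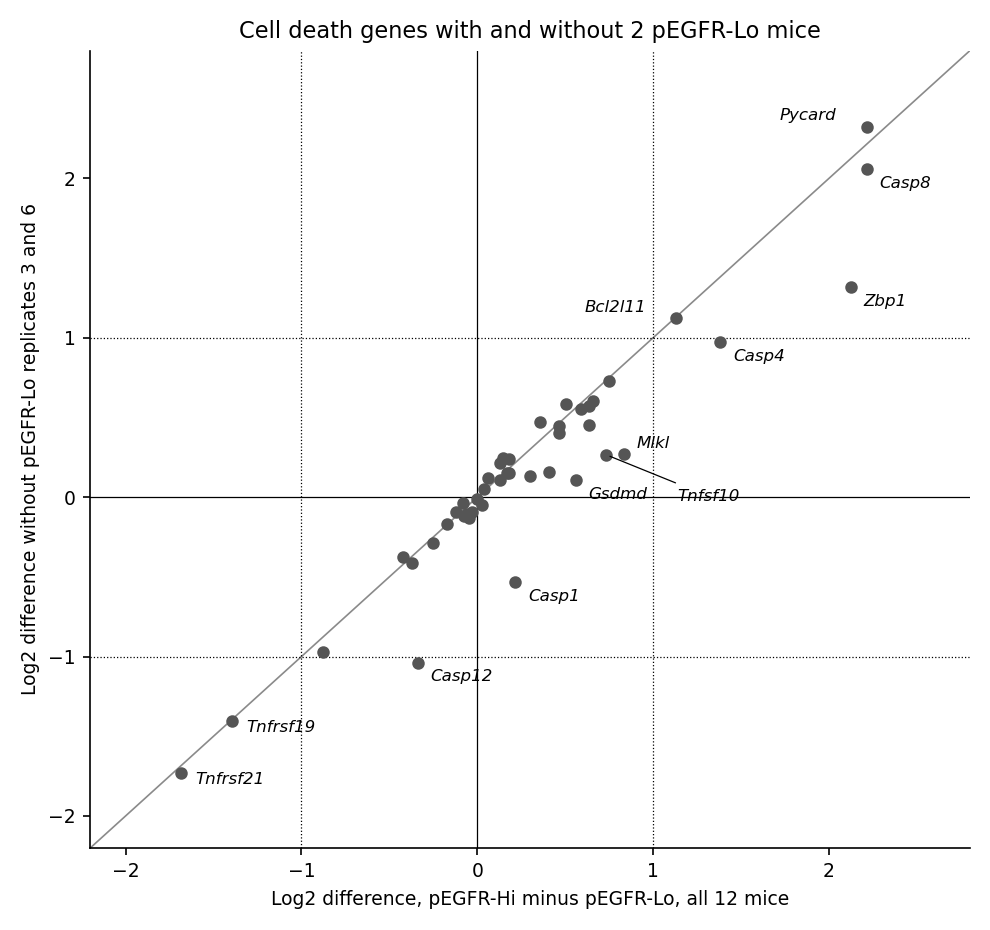
Log2 difference (pEGFR-Hi minus pEGFR-Lo) of each of the 44 cell death genes with all 12 mice (x axis) and without pEGFR-Lo replicates 3 and 6 (y axis); dotted lines mark 2-fold and the diagonal equal values. Casp8, Pycard, Bcl2l11, Tnfrsf19 and Tnfrsf21 stay near the diagonal, while Zbp1, Casp4, Casp1, Casp12, Mlkl, Gsdmd and Tnfsf10 lie below it.

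Without pEGFR-Lo replicates 3 and 6, 4 members were called higher in pEGFR-Hi (3.7% of all genes) and 3 higher in pEGFR-Lo (4.89% of all genes). Casp4 dropped out and Casp12 entered, in a fit chosen after seeing the data that left out the lowest values of both. With no fold limit the counts were 11 and 5, against 12.6% and 11.5% of all genes.

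Beyond the 44 members, 77 of 89 other listed genes of the same pathways were measured, and 8 were called higher in pEGFR-Hi (3.99% of all genes) and 4 higher in pEGFR-Lo (5.06% of all genes). With no fold limit these counts were 16 and 9, against 14.7% and 12.9% of all genes. Eda2r, which encodes a death-inducing ectodysplasin receptor known as a p53 target, was 3.91-fold higher in pEGFR-Hi (difference 1.97, SE 0.16, adjusted p = 4.94e-08). Bcl2l12, a BCL2-like gene, was 2.98-fold higher (1.57, SE 0.10, adjusted p = 2.45e-09). Rnf31, which encodes the catalytic subunit of the linear ubiquitin ligase that steers TNF receptor signaling away from death, was 2.85-fold higher (1.51, SE 0.16, adjusted p = 1.09e-06). Birc5, which encodes survivin, an IAP family protein needed for mitosis, was 2.62-fold higher (1.39, SE 0.08, adjusted p = 7.59e-10). Casp8ap2, Nod1, Daxx and Pidd1 were the other calls in this direction. The calls higher in pEGFR-Lo included Txnip, a thioredoxin-binding protein linked to the NLRP3 inflammasome (-1.58, 2.99-fold, adjusted p = 1.79e-05), and Pea15a, a death effector domain protein that binds FADD (-1.47, 2.77-fold, adjusted p = 1.52e-09). The other calls were Septin4 (-1.21), whose ARTS isoform antagonizes XIAP, and Ngfr (-1.16), the p75 neurotrophin receptor. The groups did not overlap in any of these 12 genes, which were picked for their difference in the same mice. Among all 77 genes the groups were apart for 15 higher in pEGFR-Hi (12.2% of all genes) and 6 higher in pEGFR-Lo (11.1%). Nod1, a cytosolic sensor of bacterial peptidoglycan, fell short of 2-fold without pEGFR-Lo replicate 3 (1.90-fold) or replicate 6 (1.97-fold), Pidd1 without pEGFR-Hi replicate 2 (1.97-fold), and Daxx without pEGFR-Hi replicate 5 (1.96-fold). Without pEGFR-Lo replicates 3 and 6 together, Nod1 (1.59-fold) and Septin4 (1.92-fold) were no longer called.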

How the data were processed

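RNA of FACS-sorted ZsGreen-positive tumor cells was hybridized to Affymetrix Mouse Gene 1.0 ST arrays, 1 array per mouse, with 6 mice in each group and with groups and replicate numbers taken from the sample titles. The authors deposited log2 values made with RMA in Affymetrix Expression Console (no version stated), which subtracts background, quantile-normalizes the arrays and summarizes each probe set, so a change in total RNA per cell cannot be seen. Of 35556 probe sets, 21789 had 1 gene symbol, 1621 several and 12146 none in the annotation used. Only those with 1 were named, 21698 were matched to RefSeq by Entrez ID, and the brightest was used for 999 genes with more than 1. The number of arrays limits the precision.

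Groups were compared with limma 3.58.1 in R 4.3.3 (data.table version 1.17.8), with figures from matplotlib 3.10.9 and pandas 2.3.3 in Python 3.11.15. The code was tested on simulated data. SAM, the test of the methods, was run as an alternative with 100 permutations, at the same false discovery rate (0.01) and fold. Other alternatives were dropping the fold limit, quantile normalizing over the tested genes, centring arrays on their medians, leaving out dim genes, adding a replicate block, robust eBayes with a trend, weighting arrays, averaging all probe sets of a gene, and omitting each array in turn. The fit without pEGFR-Lo replicates 3 and 6 was chosen after seeing the data. All 44 members were reported, called ones in full. Of the other cell death genes, those called at 2-fold were named, the 4 largest in each direction with values. The members and lists were chosen with earlier results of these data known. Where the lower group's mean was not above background, the fold was taken from the background level and written as at least that value. The replicate numbers were not used as pairs in the main fit. Some genes were not analysed here.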

Additional observations from a re-analysis of the deposited data

Results flagged for a closer look

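In 3 of the 88 groups of 6 values (44 members in 2 groups of mice), 1 mouse lay far from the rest of its group by Dixon's gap test, which flags about 1 in 20 groups by chance. Fas was 6.28 in pEGFR-Hi replicate 5 and 5.45 to 5.65 in the other pEGFR-Hi mice. Gsdmd was 7.34 in the same mouse and 6.93 to 7.06 in the others. This mouse also had the highest mean of the interferon-stimulated genes, 9.16. Ripk3 was 4.39 in pEGFR-Lo replicate 3, above the background level of 4.10. The rest of its group lay between 3.83 and 3.96.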

How the results depend on the processing

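The same 5 and 2 members and the same 8 and 4 other cell death genes were called with SAM, another quantile normalization, median centring, the filter on dim genes, eBayes with trend and robust, array weights and averaged probe sets. Without the fold limit, an adjusted p under 0.01 gave 13 and 4 members and 16 and 9 other genes, against 14.7% and 12.9% of all genes. An adjusted p under 0.05 gave 15 and 6 members and 21 and 9 other genes. The share of all genes at that looser limit was not computed, so these counts have nothing to be set against. Leaving out each array in turn, the members called stayed at 5 and 2, and the other genes ranged from 7 to 8 and stayed at 4. Differences changed sign in some of these fits for Casp1 (from -0.11 to 0.49), Bcl2l1, Bik, Bak1, Tradd, Diablo and Nlrp3, none of which was called. Without pEGFR-Lo replicates 3 and 6 together, which was chosen after seeing the data, 4 and 3 members and 7 and 3 other genes were called. Array signal limits Tnfrsf10b and Nlrp3, which had no fold, and Ripk3, which had a bound.

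With the replicate number as a block (replicate block), 5 and 2 members and 8 and 4 other genes were called, and no call changed. Across all genes, deviations of same-numbered mice from their group means correlated at -0.137 to 0.0974, and only pEGFR-Hi replicate 5 correlated best with its own number. These correlations cannot show whether same-numbered mice were handled together. The block lowered the SE of some members (Casp4 from 0.294 to 0.185) and raised that of others (Pycard from 0.118 to 0.139).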
